A study of Mus musculus with 4 samples.

Results

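The 9 genes followed here encode subunits, an anchor, an inhibitor and a substrate of protein kinase A (PKA). They are the regulatory subunits Prkar1a, Prkar1b, Prkar2a and Prkar2b, the catalytic subunits Prkaca and Prkacb, the anchor Akap12, the inhibitor Pkia and the PKA substrate Creb1. They were chosen by the measured knockout minus wild-type difference of Prkar2b on these arrays, which was large, so genotype differences of these genes are given as a description and without a test. They are 9 of 18194 genes with a probe set of their own, and they hold 29 of the 34958 probe sets paired with a single gene. Of the 29 probe sets, 21 read above log2 8.90, the median of all values, on at least 1 array. All 9 genes passed that level filter by their brightest probe set.

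PKA is the main intracellular receptor of cyclic AMP (cAMP), the small messenger that adenylyl cyclases make from ATP. The resting enzyme is a complex of regulatory and catalytic subunits. cAMP binds the regulatory subunits and releases the catalytic subunits, which then phosphorylate their substrates, among them the transcription factor CREB1. Type II regulatory subunits are held near their substrates by A-kinase anchoring proteins (AKAPs), and heat-stable inhibitor peptides of the PKI family block free catalytic subunits. In fibroblasts this pathway is known to oppose contraction and to act on cell spreading and migration. Type II-beta, the product of Prkar2b, is known mainly from fat and brain.

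RNA came from mouse embryonic fibroblasts, connective tissue cells grown out of dissociated embryos, at passage 5. The 4 groups were FAK -/- cells left untreated, FAK +/+ (wild-type) cells left untreated, FAK -/- cells given endothelin-1 and FAK +/+ cells given endothelin-1. Focal adhesion kinase, or FAK, acts as a tyrosine kinase at integrin adhesion sites. Endothelin-1 (ET-1) is a peptide that acts through G protein-coupled receptors. All cells, controls included, were grown in 10% fetal bovine serum and starved of serum for 24 h at 50% confluence before 24 h with or without ET-1. The labels do not say whether the cells of a genotype came from 1 or several embryos. Each group was measured on 1 Affymetrix mouse genome array, so no value has a replicate error, and having only 4 arrays limits the precision. Values are log2 summaries per probe set, made by the authors with the robust multi-array average (RMA). A probe set's value can be compared between arrays but not with that of another probe set.

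The ET-1-treated wild-type array stood apart in its control transcripts. There Gapdh read 3.79 log2 units higher at its 3' end than at its 5' end, against 0.85 to 0.90 on the other arrays, and the gap for Actb was 1.81, against 0.66 to 1.30. The genotype comparison in untreated cells and the ET-1 comparison in the knockout do not use that array. Of 11 fibroblast markers, 9 and 10 read above the median in the ET-1-treated and the untreated knockout, and 10 did so in each wild-type array, so most markers of the labelled cell type were present. Lum read below the median on all 4 arrays, and Thy1 did so in FAK -/- cells given ET-1. Among the 11, FAK -/- cells had 5 genes at least 2-fold below wild type in both treatment states and 1 above. Of 4 mesothelial markers, 3 were at least 2-fold higher in both states. Of 6 epithelial markers, the keratins Krt18 (3.02 untreated and 5.62 after ET-1, knockout minus wild type) and Krt7 (2.81 and 3.17) were higher and Krt19 (-2.56 and -3.41) was lower. The summed log2 level of the mesothelial list was 54.7 in the untreated knockout and 54.0 in the ET-1-treated knockout, against 44.2 in untreated and 37.2 in ET-1-treated wild type. For the epithelial list it was 63.3 and 60.8 in the knockout, against 59.1 and 54.9 in wild type. Within that list Cdh1 was below the median on every array, while Epcam was above it on every array, at 11.69 to 12.08. Krt8 was also above it throughout, and higher in the knockout by 1.36 untreated and 0.86 after ET-1. In RNA from whole cultures, fewer cells of a type and less RNA per cell cannot be told apart. The part of these shifts in the differences given here was not tested.

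Promoter windows of the regulatory subunits are shown because Prkar2b had the largest and Prkar1a the smallest genotype difference of the 9 genes in untreated cells, and Prkar2a the next largest on the low side. Each window runs from 250 bases before to 50 bases after a transcription start of RefSeq (GRCm38.p6), and 7 of the 9 genes have at least 1 window there, 20 in all. Capitals mark the cAMP response element (CRE) TGACGTCA, its core TGACG, which on the other strand reads CGTCA and is part of the full element, and the GC box GGGCGG, which on the other strand reads CCGCCC. The windows are Prkar2b at chr12:32061228-32061527 (minus strand, the upstream one of 2), Prkar2a at chr9:108691893-108692192 (plus strand) and Prkar1a at chr11:109650699-109650998 (plus strand, the fifth of 6).
Prkar2b: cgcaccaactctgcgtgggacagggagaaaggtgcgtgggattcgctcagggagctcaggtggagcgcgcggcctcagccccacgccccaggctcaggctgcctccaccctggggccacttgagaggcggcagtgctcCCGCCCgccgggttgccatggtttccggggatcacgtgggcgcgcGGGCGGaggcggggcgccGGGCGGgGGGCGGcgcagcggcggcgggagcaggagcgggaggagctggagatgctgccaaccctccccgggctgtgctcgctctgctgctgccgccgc
Prkar2a: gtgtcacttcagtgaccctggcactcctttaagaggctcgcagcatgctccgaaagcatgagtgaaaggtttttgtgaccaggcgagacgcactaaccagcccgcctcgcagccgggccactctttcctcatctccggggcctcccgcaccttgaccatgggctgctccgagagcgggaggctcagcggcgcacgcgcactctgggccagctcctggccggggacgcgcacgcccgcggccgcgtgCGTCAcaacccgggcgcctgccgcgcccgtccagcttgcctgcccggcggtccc
Prkar1a: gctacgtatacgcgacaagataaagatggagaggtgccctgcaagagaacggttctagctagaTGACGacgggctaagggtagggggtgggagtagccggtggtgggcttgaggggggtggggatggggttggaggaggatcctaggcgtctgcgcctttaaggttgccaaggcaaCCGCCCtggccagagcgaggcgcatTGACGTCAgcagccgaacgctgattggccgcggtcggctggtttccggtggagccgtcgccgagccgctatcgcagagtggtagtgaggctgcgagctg
The printed Prkar2b window holds 4 GC boxes and no CRE core. The Prkar2a window has 1 CRE core and no GC box. Prkar1a carries 1 full CRE in this window and in an overlapping one, and the printed window has 3 core matches, 2 of them inside the full element. The remaining Prkar1a windows hold no full CRE. The Prkar1a window was picked for print because it holds a full CRE, so its CRE follows from that choice and is no contrast with Prkar2b. Of all 32851 mouse windows of this length, 1.79% hold the full CRE, 20.8% the core and 35.7% a GC box. These are matches of letters, not measured binding sites.

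Among the type II regulatory subunits, Prkar2b was far lower in FAK -/- cells. Its brightest probe set (1456475_s_at) read 8.34 in the untreated knockout and 12.74 in untreated wild type on the log2 scale. After ET-1 it read 6.50 in the knockout and 13.18 in wild type. Both knockout arrays lay below the level filter and both wild-type arrays far above it. The knockout was 21.0-fold lower in untreated cells and 102-fold lower after ET-1. Against dim values these folds are uncertain. All genotype differences after ET-1, of this and the other genes, also use the wild-type array whose control transcripts stood apart.

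The other probe sets of Prkar2b had the same direction and different sizes. Probe set 1438664_at, which targets the same sequence record as the brightest one, read 7.39 in the untreated knockout and 12.13 in untreated wild type, and 5.80 and 12.80 in the ET-1-treated knockout and wild type. Its difference was 26.7-fold in untreated cells and 128-fold after ET-1. The probe set 1430640_a_at, made to another record, read 7.93 and 10.71 in the untreated knockout and wild type, and 7.85 and 11.22 after ET-1. It gave 6.84-fold and 10.3-fold lower levels in the knockout. Over the 3 probe sets the log2 difference, knockout minus wild type, lay between -4.74 and -2.77 in untreated cells and between -7.00 and -3.37 after ET-1. In the ET-1-treated knockout 3.06% of all probe sets of the array read at or below 1438664_at and 9.44% at or below the brightest one, against 93.8% and 95.7% in ET-1-treated wild type.

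Prkar2a, which encodes the widely expressed type II-alpha subunit, was lower in the knockout by less than 2-fold at its brightest probe set. Probe set 1452915_at read 12.07 in the untreated knockout and 12.98 in untreated wild type, and 12.23 and 13.03 in the ET-1-treated knockout and wild type. Both knockout arrays lay below both wild-type arrays. Untreated knockout cells were 1.89-fold lower and ET-1-treated ones 1.74-fold lower than wild type. A further bright probe set, 1428783_at, gave 11.50 and 12.32 in untreated knockout and wild-type cells and 11.40 and 12.83 after ET-1. There the knockout was 1.77-fold and 2.70-fold lower. The other 2 probe sets of Prkar2a stayed below the level filter on every array, and their differences lay between -0.35 and 0.05.

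The type I regulatory subunits differed little. Prkar1a, a broadly expressed regulatory subunit, read 13.45 in the untreated knockout and in untreated wild type, and 13.47 and 13.46 in the ET-1-treated knockout and wild type (1425550_a_at). Its other probe sets differed between genotypes by -0.30 to 0.02. Prkar1b, a type I subunit best known from neurons, read 11.14 and 11.12 in the untreated knockout and wild type and 11.07 on both ET-1-treated arrays. Its 3 other probe sets above the level filter differed by -0.20 to 0.11, and the dim 1434325_x_at by -0.35 untreated and -0.66 after ET-1.

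Catalytic subunits were close between genotypes without ET-1. Prkaca, the main catalytic gene in most tissues, read 13.19 in the untreated knockout and 13.17 in untreated wild type, and 13.31 and 13.57 in the ET-1-treated knockout and wild type. Its other bright probe set, 1450519_a_at, had a difference of -0.35 untreated and -0.02 after ET-1, so the 2 probe sets did not place the larger difference in the same treatment state. Prkacb, the other broadly expressed catalytic gene, read 11.62 and 11.66 in the untreated knockout and wild type, and 11.74 and 12.16 after ET-1. Its 2 dim probe sets differed by -0.17 to 0.23.

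Akap12, which encodes the membrane-linked scaffold gravin, read 12.66 in the untreated knockout and 12.30 in untreated wild type, and 12.50 and 12.32 in the ET-1-treated knockout and wild type. Both knockout arrays were higher, by 0.35 and 0.17 on the log2 scale. Pkia, the inhibitor peptide of the catalytic subunits, read 12.13 in the untreated knockout and 11.38 in untreated wild type. After ET-1 it read 12.11 in the knockout and 12.45 in wild type. Untreated wild type was the low array and the remaining 3 lay within 0.34 of each other. The difference was 0.75 untreated and -0.34 after ET-1, and the dim probe set 1420858_at gave 1.02 and 0.04. Creb1, the transcription factor that binds the CRE, differed by 0.12 and -0.01 at its brightest probe set and by -0.16 to 0.30 over all 6.

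**Figure D1:**
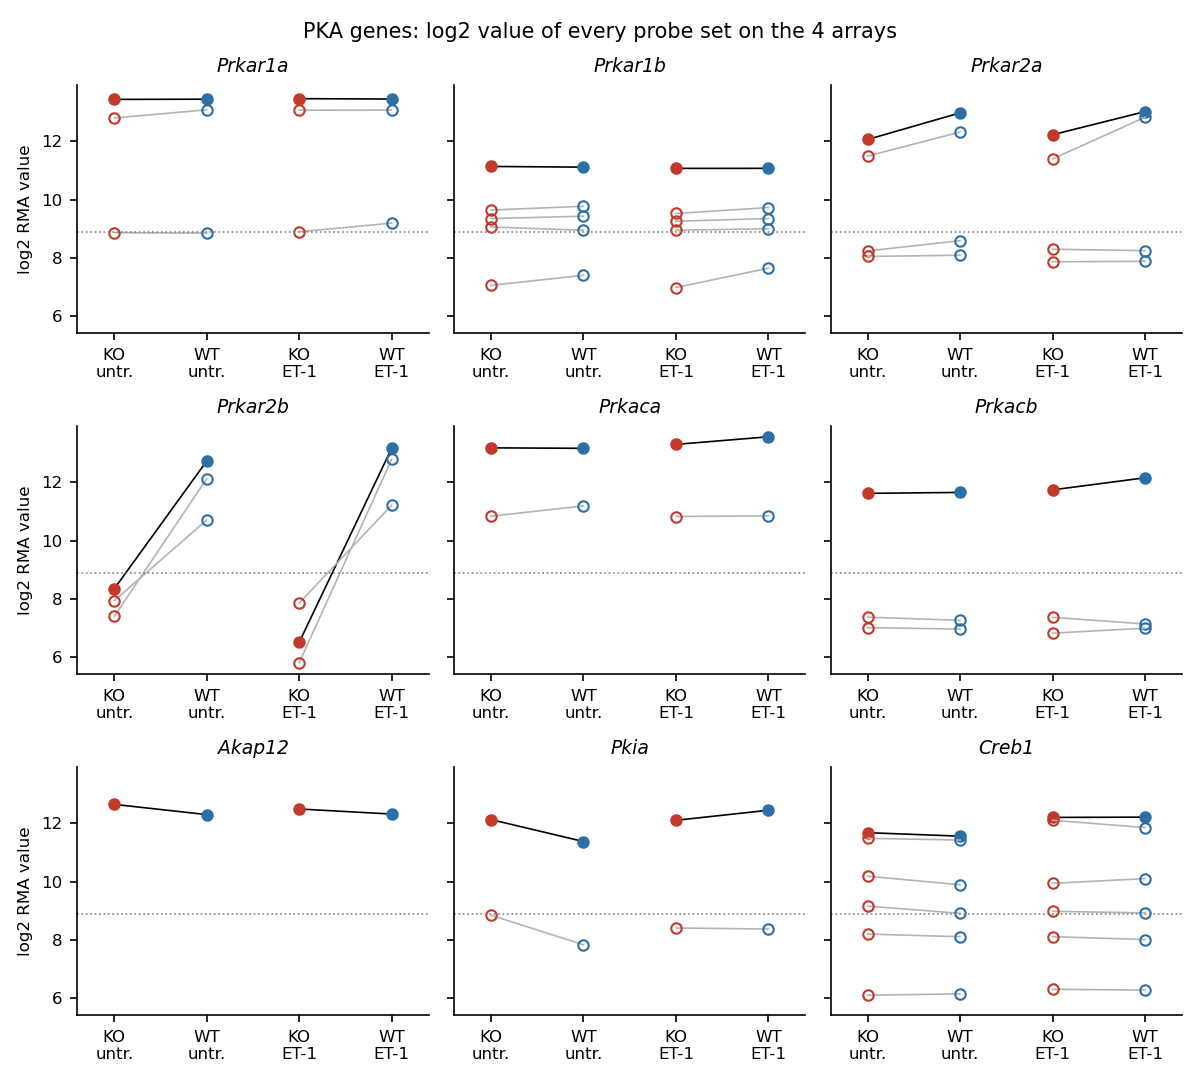
Log2 RMA value (y axis) of every probe set of the 9 genes on the 4 arrays (x axis; KO is FAK knockout, WT is wild type, untr. is untreated). Filled points are the brightest probe set of a gene, open points the others, lines join the genotypes within a treatment state, and the dotted line is the level filter at 8.90; Prkar2b drops below it in both knockout arrays.

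At least 2-fold lower levels in the knockout were found for 1 of the 9 genes in untreated cells, where 4.59% of 12290 genes were that low, and for 1 of 9 after ET-1, where 6.53% were. By the brightest probe set, 0 of the 9 were 2-fold higher in either state (background 4.78% and 5.61%). The members' median difference was 0.02 untreated and -0.26 after ET-1, against 0.02 and -0.03 over all genes. Without Prkar2b the other 8 genes spanned -0.92 to 0.75 untreated and -0.80 to 0.17 after ET-1. Since the genotype difference chose the list, these counts are descriptive.

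**Figure D2:**
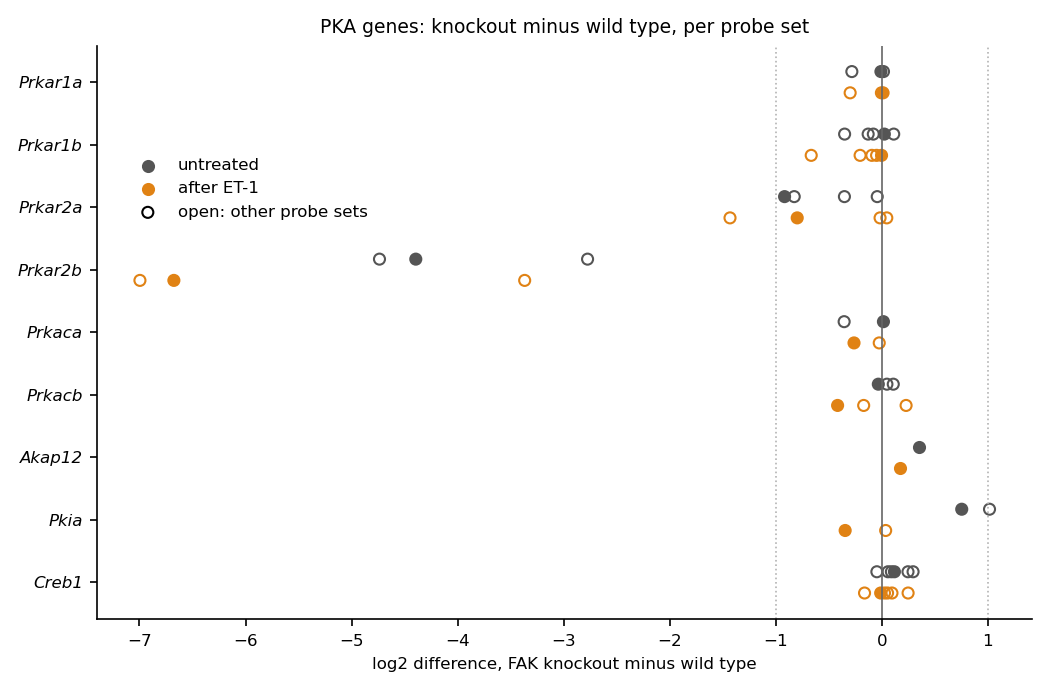
Log2 difference, FAK knockout minus wild type (x axis), for each probe set of the 9 genes (rows), in untreated cells (grey, upper) and after ET-1 (orange, lower). Filled points are the brightest probe set of a gene and dotted lines mark 2-fold; the 3 Prkar2b probe sets lie between -7.00 and -2.77, and those of Prkar2a reach -1.43.

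The ET-1 comparison asked whether these genes differed after treatment in each genotype. In the knockout, 1 of the 9 genes was at least 2-fold lower (background 0.277% of genes) and 0 were 2-fold higher (0.236%). In wild type, 1 was at least 2-fold higher (background 0.781%) and 0 were 2-fold lower (1.17%). The median member difference was 0.03 in the knockout and 0.40 in wild type, against -0.02 and 0.05 over all genes. The wild-type values rest on the array whose control transcripts stood apart.

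Prkar2b was the gene below 2-fold in the knockout. Its brightest probe set read 6.50 in the ET-1-treated and 8.34 in the untreated knockout, a 3.59-fold lower level after ET-1, and 1438664_at was 3.02-fold lower. The third probe set, 1430640_a_at, read 7.85 and 7.93, a difference of -0.08. All 6 of these values were below the level filter, and the knockout arrays also entered the contrast on which the gene was chosen. In wild type all 3 probe sets were higher after ET-1, by 0.44 to 0.67.

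Pkia was the gene above 2-fold in wild type, at 12.45 in ET-1-treated and 11.38 in untreated cells, a 2.11-fold higher level. The dim probe set was 1.45-fold higher. In the knockout Pkia read 12.11 and 12.13, and the dim probe set was lower after ET-1 by 1.36-fold. Creb1 was higher after ET-1 in both genotypes at its 2 brightest probe sets. At 1428755_at it read 12.21 in ET-1-treated and 11.68 in untreated knockout cells, and 12.22 and 11.56 in ET-1-treated and untreated wild type. At 1452901_at it read 12.11 and 11.49 in the knockout and 11.86 and 11.43 in wild type. Both treated arrays lay above both untreated arrays at each of these probe sets, and within a genotype the treated array was higher by 1.35-fold to 1.57-fold. The 2 further Creb1 probe sets above the filter did not share this: 1423402_at differed by -0.25 in the knockout and 0.21 in wild type, and 1421582_a_at by -0.18 and 0.01.

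Prkaca and Prkacb were higher after ET-1 by 0.12 in the knockout for each, and by 0.40 and 0.50 in wild type, at their brightest probe sets. The other Prkaca probe set had -0.34 in wild type. Prkar1a, Prkar1b, Prkar2a and Akap12 differed by 0.16 or less in size in both genotypes at their brightest probe sets.

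A test of ET-1 was possible for the mean over both genotypes. The additive limma fit to the 4 arrays compares a difference with the genotype by treatment term, not with a spread between cultures. It called 0 of 12290 genes for ET-1 at an adjusted p under 0.05 (0.00% in each direction), with 643 genes (5.23%) at an unadjusted p under 0.05. Creb1 had the lowest p of the 9 genes, at 0.59 ± 0.17 (SE; limma, unadjusted p = 0.0239, adjusted p = 0.780) and higher values on both treated arrays. Pkia had 0.52 ± 0.32 and Prkar2b -0.70 ± 0.58 (limma, adjusted p = 0.780 and 0.790). Prkaca (0.26 ± 0.15) and Prkacb (0.31 ± 0.19) did not pass either, nor did the remaining 4 genes, whose estimates lay between -0.07 and 0.10. These p-values do not show that the genes are unaffected by ET-1.

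**Figure D3:**
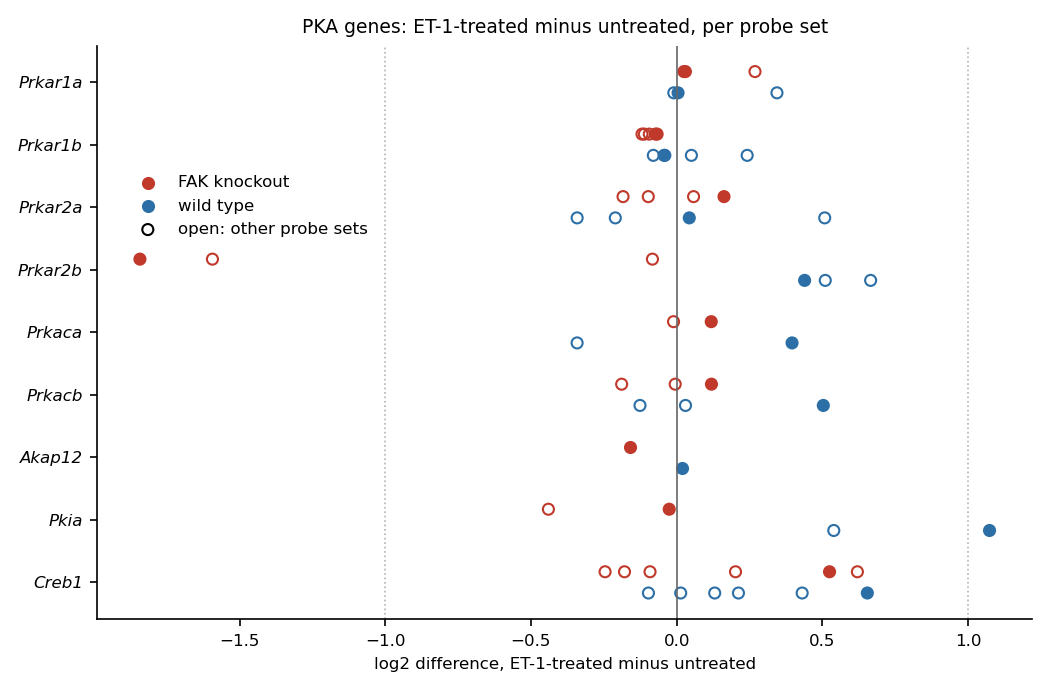
Log2 difference, ET-1-treated minus untreated (x axis), for each probe set of the 9 genes (rows), in FAK knockout (red, upper) and wild type (blue, lower). Filled points are the brightest probe set of a gene and dotted lines mark 2-fold; 2 probe sets of Prkar2b lie below -1 in the knockout and Pkia lies at 1.07 in wild type.

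The difference between the ET-1 differences, knockout minus wild type, was at least 2-fold negative for 2 of the 9 genes (background 1.31%) and 2-fold positive for 0 (1.59%). These were Prkar2b at -2.28 and Pkia at -1.10. The other Prkar2b probe sets gave -2.26 and -0.59, and the dim Pkia probe set gave -0.98. The remaining 7 genes lay between -0.38 and 0.12. With 1 array a group this value has no test. For Prkar2b it is made of the genotype differences that chose the list, and its knockout values were below the level filter. Each of these values also uses the ET-1-treated wild-type array, whose control transcripts stood apart, so the counts are descriptive.

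The genes whose values followed Prkar2b most closely were sought by Euclidean distance over the 4 arrays, after each gene was centred on its own mean. The 5 nearest of 12290 genes were Thy1, a fibroblast surface glycoprotein, Matn2, a matrix protein, Cxcl5, a chemokine, B3galnt1, a glycosyltransferase, and Fgf7, a growth factor, at distances of 0.27 to 0.59 log2 units. Thy1 read 8.95 in the untreated knockout and 13.01 in untreated wild type, and 6.85 and 13.46 in the ET-1-treated knockout and wild type. ET-1 minus untreated was -2.10 to -1.27 in the knockout and 0.45 to 0.74 in wild type for these 5 genes. Since they were picked for likeness to Prkar2b on the same 4 arrays, the shared direction follows from the choice. Their values in the ET-1-treated knockout, 5.72 to 7.16, were all below the level filter. With all probe sets averaged, knockout minus wild type of Fgf7 was -2.93 untreated and -3.64 after ET-1, against -4.24 and -5.97 at the brightest one. For Matn2 it was -3.61 and -5.42, against -4.49 and -7.09, and the other 3 genes have 1 probe set each.

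**Figure D4:**
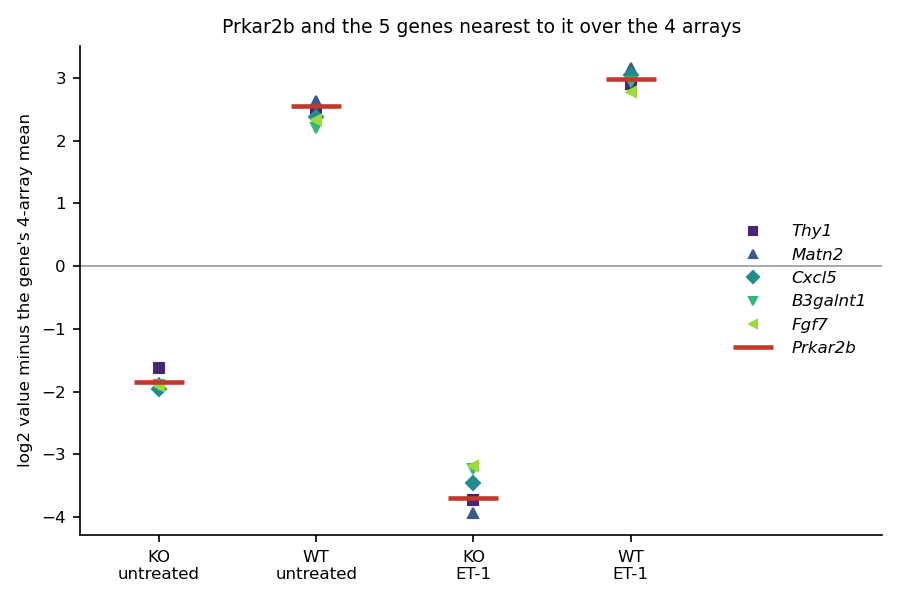
Log2 value minus the gene's mean over the 4 arrays (y axis) for Prkar2b (red bars) and the 5 genes nearest to it (symbols) on each array (x axis; KO is FAK knockout, WT is wild type). Every gene is lowest in the ET-1-treated knockout and highest in ET-1-treated wild type.

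The rest of the cAMP pathway was followed through 9 lists of 113 genes, of which 103 had a probe set and 73 passed the level filter. Averaged over treatments by limma, 4 of the 73 rose in the knockout (5.48%, against 6.60% of all genes tested) and 8 fell (11.0%, against 7.05%). The median difference was -0.04, against -0.0047 over all genes. The shares of all genes tested, 6.60% higher and 7.05% lower, are also the background for each list below. Of the 12 genes called, 11 were also at least 2-fold apart in untreated cells alone, without the ET-1-treated arrays, the exception being Bdnf. The untreated arrays are part of the fit that made the calls, so this overlap largely follows from the calls and is no separate support. The level filter admits a gene that is bright in 1 genotype alone, and such a gene has to differ, so the counts and medians of these lists are descriptive. Without the filter, over 18194 genes, 11 of the 12 were also called, again all but Bdnf (limma adjusted p = 0.0634).

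Enzymes that destroy cAMP accounted for 4 of the 8 genes that fell. Of 11 cAMP phosphodiesterases tested, 4 fell and 0 rose (7.05% and 6.60% of all genes), with a list median of -0.38. Without the level filter the same 4 of 15 fell, where 779 of 18194 genes did, and the median was -0.18. With all 4 arrays required above the filter, 1 of 6 fell, Pde8a, where 713 of 10896 genes did. Pde3b read 9.03 in the untreated knockout and 11.15 in untreated wild type, and 8.65 and 11.49 after ET-1, a mean difference of -2.48 ± 0.20 (limma SE, adjusted p = 0.00901). Pde8b, a high-affinity cAMP-specific enzyme, fell by 2.31 ± 0.11 (limma adjusted p = 0.00556) and its other probe set gave -2.70. Pde4d fell by 2.12 and Pde8a by 1.99 (limma adjusted p = 0.0302 and 0.0109), while their other probe sets gave 0.02 and -0.22. The knockout values of Pde8b and Pde4d were below the level filter, so both entered through wild type alone, and that of Pde3b was below it after ET-1. Their limma adjusted p-values without the filter were 0.00813, 0.0477 and 0.0166. Pde4b differed by -0.50 at its brightest probe set and did not pass (limma adjusted p = 0.278), and its 6 probe sets gave -0.50 to 0.25.

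Of 7 adenylyl cyclases tested, Adcy7 fell and 0 rose (7.05% and 6.60% of all genes), with a list median of -0.03. It read 8.49 in the untreated knockout and 9.68 in untreated wild type, and 8.56 and 10.38 after ET-1, a difference of -1.51 ± 0.18 (limma adjusted p = 0.0172), and over its 3 probe sets the difference lay between -1.51 and 0.03. Its knockout values were below the level filter, so it entered through wild type alone (limma adjusted p = 0.0283 without the filter). Among 5 G protein alpha subunits, Gnai1, which restrains adenylyl cyclase, rose and 0 fell, with a median of -0.14. It read 12.20 in the untreated knockout and 8.75 in untreated wild type, and 12.45 and 8.18 after ET-1, a difference of 3.86 ± 0.23 (limma adjusted p = 0.00642), with 0.25 at its least different probe set. Both wild-type values were below the level filter, so it entered through the knockout alone (limma adjusted p = 0.0121 without the filter). Gnas, the stimulatory alpha subunit, differed by 0.04 (limma adjusted p = 0.860). Of 3 Gs-coupled receptors tested, the PACAP receptor Adcyap1r1 rose by 1.35 ± 0.16 and the prostaglandin E2 receptor Ptger4 fell by 1.34 ± 0.16 (limma adjusted p = 0.0168 and 0.0186), and the median was -0.06. Over their probe sets the difference lay between 0.24 and 1.35 for Adcyap1r1 and between -1.34 and -1.12 for Ptger4.

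Of 19 other A-kinase anchoring proteins tested, 1 rose and 0 fell (6.60% and 7.05% of all genes). The gene that passed was Ezr, which encodes ezrin, a linker of membrane and actin as well as a PKA anchor. It read 14.48 in the untreated knockout and 12.12 in untreated wild type, and 14.41 and 10.81 after ET-1, a difference of 2.98 ± 0.34 (limma adjusted p = 0.0162), while its other probe set gave 0.20. The list median was -0.02. No gene passed among 2 further PKA inhibitors and related kinases, 5 other cAMP effectors and 10 CREB relatives, coactivators and SIK kinases, whose medians were -0.00255, 0.13 and -0.02. Of 11 CREB target genes tested, Cebpb rose (1.43 ± 0.23) and Nr4a2 (-1.43 ± 0.12) and Bdnf (-0.89 ± 0.16) fell by limma (adjusted p = 0.0321, 0.00939 and 0.0402), and the list median was -0.25. The knockout values of Nr4a2 were below the level filter (limma adjusted p = 0.0140 without it), and its 6 probe sets gave -1.43 to -0.05.

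For ET-1 none of the 73 genes passed by limma, with 4 at an unadjusted p under 0.05. Fos, an immediate early CREB target, read 12.21 in ET-1-treated and 11.08 in untreated knockout cells, and 11.05 and 10.42 in ET-1-treated and untreated wild type. That was 1.13 higher in the knockout and 0.63 higher in wild type. Ezr was lower after ET-1 in wild type by 1.31 and differed by -0.07 in the knockout. Junb differed by 0.86 in the knockout and -0.93 in wild type. Bves, a cAMP-binding membrane protein, was at 0.06 and 0.99, Rapgef3, the cAMP-activated exchange factor Epac1, at 0.08 and 0.75, and Crem, which includes the repressor ICER, at 0.19 and 0.93. Crem was above the level filter on the ET-1-treated wild-type array alone, at 9.44. Junb was above it only in the ET-1-treated knockout and in untreated wild type. All wild-type differences given here rest on the array whose control transcripts stood apart.

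**Figure D5:**
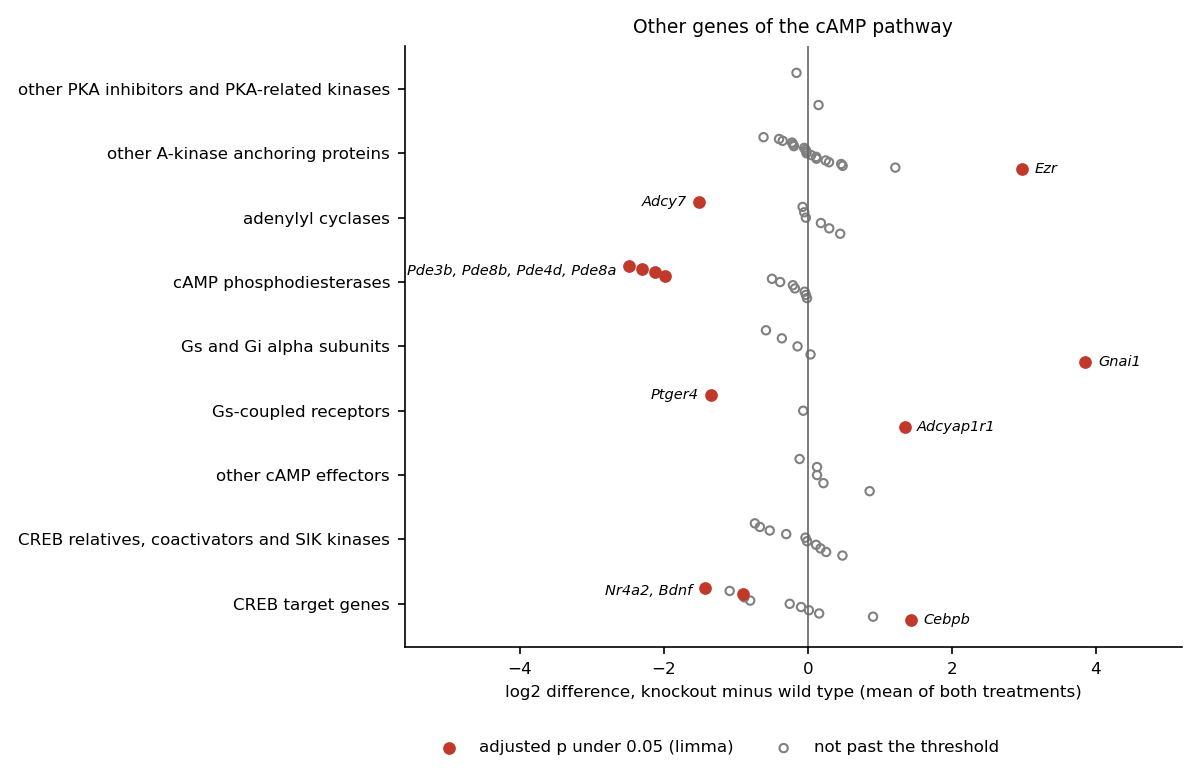
Log2 difference, FAK knockout minus wild type, averaged over treatments (x axis) for the 73 tested genes of 9 cAMP pathway lists (rows), 1 point a gene. Red points passed limma at an adjusted p under 0.05 and are named; the 4 phosphodiesterases lie between -2.48 and -1.99, and Gnai1 at 3.86.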

How the data were processed

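Per the submitters' processing notes, the authors summarised the arrays with RMA, whose version is not given in the sources used here, and the deposited values are log2 intensities per probe set (5.00 to 15.24, array medians 8.89 to 8.92). The table holds 45101 probe sets. Total RNA (100 ng) was labelled in an amplification that starts at the 3' end, per the labels' protocols.

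Probe sets were named through the platform annotation, which pairs 34958 of them with 1 gene. The 9 members were taken with every such probe set, and each gene in a genome-wide comparison by its brightest one over the 4 arrays. The 12290 genes with a value above the median of all values (8.90) were tested. Differences between arrays have no test. An additive fit of genotype and treatment used limma 3.58.1 (eBayes with trend, 1 residual degree of freedom) in R 4.3.3, with Benjamini-Hochberg adjustment at 0.05. On simulated data for 12290 genes, 97% of 100 8-fold changes and 5% of 100 2-fold changes in genotype were called, and 99% and 7% of those in ET-1. Far fewer genes were changed there than the 1677 called for genotype in the data. The adjusted p depends on that number, so the simulated genotype shares need not hold for the real fit. The simulated ET-1 changes were the same in both genotypes, and the gene variances had the form that the fit assumes. An ET-1 difference that varies by genotype enters the error of the real fit, so the ET-1 shares need not hold there either. Python 3.11.15 and pandas 2.3.3 served for the rest.

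The members, pathway lists and naming rule (up to 5 called genes a list by size, 2 by their ET-1 difference, and the 5 nearest to Prkar2b) were chosen with earlier results of these data known. Alternatives changed the probe set summary, filter, scaling, prior and fold threshold. The transcript of the FAK gene is not analysed here, so the genotype labels were not checked against it.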

Additional observations from a re-analysis of the deposited data

Results flagged for a closer look

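The ET-1 difference had opposite signs in the genotypes at the brightest probe set of Prkar2b, Pkia and Akap12. How often this occurs over all genes was not counted, so it is a description only. For Prkar2b it was -1.84 in the knockout and 0.44 in wild type, a difference of -2.28, and the knockout values were dim. For Pkia it was -0.03 and 1.07, a difference of -1.10. For Akap12 it was -0.16 and 0.02, a difference of -0.18. The opposite sign rests on a very small value for Pkia in the knockout and for Akap12 in wild type. With 1 array a group, none of these differences between genotypes was tested.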

How the results depend on the processing

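No paired analysis was possible because each group has 1 array and the labels give no replicate numbers, and no array of a group can be left out. At 1.5-fold in place of 2-fold, 3 of the 9 genes differed by genotype without ET-1 and 2 with it, against 1 each, and 2 differed after ET-1 in wild type, against 1. The share of all genes at 1.5-fold was not counted, and the genotype counts include Prkar2b, which chose the list, so these counts are descriptive. The wild-type count at 2-fold, which rests on Pkia, was 0 with the mean of all probe sets and 0 with quantile normalisation. The cause was not tested. All other counts of members at 2-fold were the same with subtracted array medians, quantile normalisation or the mean of all probe sets. Of 45 single member differences, 43 moved by less than 1.5-fold when probe sets were averaged, and all 45 did so with each other scaling. The 2 others were Prkar2b, at -5.68 for knockout minus wild type after ET-1 and -1.17 for ET-1 minus untreated in the knockout, against -6.68 and -1.84. Of 73 pathway genes, 7 rose with array medians subtracted, against 4. Over all genes 1183 of 12286 rose there, against 811 of 12290. Against 8 of 73 in the main fit, 12 of 73 fell with quantile normalisation and 10 of 73 with array medians subtracted. Over all genes 1094 of 12284 and 1139 of 12286 fell in these fits, against 866 of 12290. Calls thus grew over all genes as well, so these counts are descriptive. Where every array had to be above the median, 4 of 58 fell, and 713 of 10896 over all genes. That filter leaves out 6 of the 12 called genes, which are dim in 1 genotype (Adcy7, Gnai1, Nr4a2, Pde3b, Pde4d and Pde8b), and the other 6 stayed called. Bdnf was not called without a filter, and Nr4a2 and Pde4d dropped below the filter when probe sets were averaged. In untreated cells alone, an alternative chosen after seeing the data, 5 of the 73 pathway genes were at least 2-fold higher and 7 lower. Over all 12290 genes 4.78% were that much higher and 4.59% lower. Adcy7, Pde4d, Pde8b and Nr4a2 among the lower and Gnai1 among the higher passed the level filter through 1 genotype alone, so these counts are descriptive. The count of genes called for ET-1 was 0 under all 7 alternatives of the fit, while 561 to 955 genes had an unadjusted p below 0.05. The lowest adjusted p was 0.0508 with array medians subtracted and 0.610 to 0.787 under the others. The genes called for genotype numbered 1438 to 2322, against 1677. The knockout values of Prkar2b were below the level filter at all 3 probe sets.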

Other observations

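Because type II-beta is the regulatory subunit known from fat, a short list of adipocyte markers was also read, of which 4 of 5 had a probe set. Fabp4, a fatty acid carrier, read 6.87 in the untreated knockout and 9.35 in untreated wild type, and 6.11 and 10.55 in the ET-1-treated knockout and wild type. Pparg, the adipogenic transcription factor, read 7.95 and 9.33 in the untreated knockout and wild type, and 7.85 and 9.64 after ET-1. Both were below the level filter in the knockout. Lpl, the lipoprotein lipase, was bright on every array, at 13.61 and 13.40 in the untreated knockout and wild type and 13.68 and 14.07 after ET-1. Adipoq, the adipocyte hormone adiponectin, read 6.06 to 6.29 on all 4 arrays, below the level filter.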
